A study of Mus musculus with 18 samples.

Results

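Transcripts of 10 genes of the integrated stress response and the unfolded protein response were followed across purified mouse brain microglia. The genes were taken by name, by a rule that uses no measured value although earlier results of these data were known, and fall into an Atf4 branch of 5 genes (Atf4, Atf3, Atf5, Ddit3 and Ppp1r15a) and an endoplasmic reticulum (ER) branch of 5 (Hspa5, Calr, Dnajb9, Herpud1 and Xbp1). All 10 were among the 10948 genes that passed the low-count filter, out of 55414 gene identifiers listed. The 18 libraries came from 5 male Chd8 knockout (KO) samples, 5 male wild-type (WT) samples, 4 female KO samples and 4 female WT samples. Chd8 encodes a chromatin remodeler, and the labels state neither the allele, nor the cells in which it was deleted, nor the animals' age. They also do not say that libraries came from separate animals, so p-values measure only the spread between these libraries.

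The integrated stress response acts through kinases that phosphorylate the translation factor eIF2, which slows protein synthesis overall while the mRNA of Atf4 is translated more. Atf4 protein then raises transcription of amino acid, stress and death genes. The unfolded protein response senses misfolded protein in the ER: Perk feeds into the Atf4 branch, while Ire1 (through Xbp1) and Atf6 raise ER chaperones and degradation factors. Microglia, the macrophages resident in brain tissue, have a high load of secreted and membrane protein to fold. Because Atf4 is controlled chiefly at translation and Xbp1 by splicing, 3′ counts of their mRNA measure neither Atf4 protein nor the spliced form of Xbp1.

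The assay was bulk MARS-seq, in which the 3′ end of each captured mRNA molecule is given a random tag, the unique molecular identifier (UMI), so that amplified copies are counted once. Libraries held 435838 to 9149144 UMIs, and the shallowest were female KO replicate 33 and female WT replicate 34. The libraries had 3 distinct ranges of reads per UMI, holding 8, 6 and 4 of them (1.79 to 1.89, 2.94 to 3.12 and 5.52 to 7.26), and the highest held 1 female KO library, 3 of the 4 female WT libraries and no male library. All 12 microglial markers were measured, with a summed level of 36614 to 52591 counts for each 1000000 UMIs (CPM) per library, and 7 T and NK cell markers summed to at most 5.23 CPM. Markers of other cells held more: 9 neutrophil markers summed to 315 to 15879 CPM and 10 plasma and B cell markers to 865 to 1334 CPM. The 6 choroid plexus and ependymal markers summed to 34.9 to 985.5 CPM. Of the 12 microglial markers, Cx3cr1 was the 1 called between male KO and male WT (-1.15 ± 0.16 on the log2 scale, SE; edgeR adjusted p = 0.000136). Chd8 averaged 104 ± 8.52 CPM in male KO and 152 ± 12.7 CPM in male WT libraries (SD, n = 5 each), and 123 ± 10.8 CPM in female KO and 166 ± 24.3 CPM in female WT libraries (SD, n = 4 each). Chd8 was called lower in male KO (log2 fold change -0.54 ± 0.10, SE; edgeR adjusted p = 0.00171). In female KO it was lower without passing (-0.44 ± 0.12, SE; edgeR adjusted p = 0.0547). Since 3′ tags may come from outside the deleted part, these values do not settle whether the KO label holds.

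The promoters of the members were searched for 5 short elements known to bind the factors of these pathways, because the elements known for the 2 branches differ. All 10 members matched the RefSeq promoter table (11 promoters on GRCm38.p6, from 250 bases before to 50 bases after the start), which holds 32851 promoters in all, and both strands were searched. The ER stress response element, CCAAT and CCACG 9 bases apart, was found in 0.119% of all promoters and in those of Hspa5 and Calr. Its variant ERSE-II, ATTGG and CCACG 1 base apart, was found in 0.0365% and in that of Herpud1. The composite C/EBP-ATF site read by Atf4, TGATGNAA, was found in 3.97% and in those of Atf3 and Herpud1. The cAMP response element TGACGTCA, a palindrome, was found in 1.79% and in that of Ppp1r15a. The Xbp1 and Atf6 site TGACGTGG, which shares its first 6 letters with the cAMP response element, was found in 0.676% and in no member. ERSE and ERSE-II share CCACG. These are matches of letters, not sites shown to be bound. Starts are those of RefSeq, while the gene spans given below come from the GENCODE M21 annotation, whose starts can differ. The Hspa5 and Atf3 windows therefore lie inside the spans given for these genes, and the Ppp1r15a window lies partly inside. Windows of 30 bases follow 5′ to 3′, with the matched letters in capitals.
Hspa5, ERSE, chr2:34772020-34772049, plus strand, the strand of the gene: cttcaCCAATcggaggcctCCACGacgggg
Calr, ERSE, chr8:84847070-84847099, plus strand, opposite to the gene: atgggCCAATgagggtcgaCCACGcgttgt
Herpud1, ERSE-II, chr8:94386368-94386397, plus strand, the strand of the gene: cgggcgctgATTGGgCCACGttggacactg
Herpud1, C/EBP-ATF, chr8:94386306-94386335, minus strand, opposite to the gene: ggggtgcgggcTGATGCAAcccgccgtggt
Atf3, C/EBP-ATF, chr1:191183425-191183454, plus strand, opposite to the gene: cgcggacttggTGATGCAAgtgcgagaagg
Ppp1r15a, cAMP response element, chr7:45526262-45526291, minus strand, the strand of the gene: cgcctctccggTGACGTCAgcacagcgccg

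In male microglia the Atf4 branch split. Atf4 fell in KO, Atf3 rose, and the other 3 genes of the branch and all 5 of the ER branch did not pass the test. Called genes were 2 of 10 members, where 6.24% of all tested genes were called in this comparison (a call is an edgeR quasi-likelihood test with a Benjamini-Hochberg adjusted p under 0.05 over all tested genes).

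Atf4 (ENSMUSG00000042406, chr15:80255184-80257541, plus strand), the transcription factor of the branch, was measured at 275, 299.7, 344, 307 and 332 CPM in male KO libraries, against 448, 419.6, 450.0, 427 and 387 CPM in male WT libraries. Every KO library lay below every WT library. The log2 fold change was -0.45 ± 0.11 (SE), 1.37-fold lower in KO (edgeR adjusted p = 0.00955). Within the lowest reads-per-UMI range, which held 4 male KO and 3 male WT libraries, it was -0.44 (edgeR adjusted p = 0.0142), and it passed in 31 of 32 alternatives.

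Atf3 (ENSMUSG00000026628, chr1:191170296-191218039, minus strand), a related factor that Atf4 induces and that is also an early response gene, had 45.2, 60.7, 62.3, 41.8 and 49.3 CPM in male KO libraries, against 46.0, 36.5, 35.6, 31.9 and 30.1 CPM in male WT libraries. The groups overlapped through WT replicate 10, and 3 KO libraries lay above all WT libraries. The log2 fold change was 0.52 ± 0.15 (SE), 1.44-fold higher in KO (edgeR adjusted p = 0.0344). The call was lost without any 1 of male KO replicates 9, 17 and 40 and male WT replicates 11, 13, 14 and 37 (edgeR adjusted p = 0.0556 to 0.112), on reads without UMI correction (0.187) and within the lowest reads-per-UMI range (log2 fold change 0.43, edgeR adjusted p = 0.136).

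The remaining Atf4 branch genes had male log2 fold changes between -0.30 and -0.05. Atf5 (ENSMUSG00000038539, chr7:44812256-44816658, minus strand), another factor under the same translational control, averaged 16.0 ± 3.69 CPM in male KO and 19.5 ± 1.42 CPM in male WT libraries (SD, n = 5 each; edgeR adjusted p = 0.41). Ddit3 (ENSMUSG00000025408, chr10:127290774-127296288, plus strand), which encodes the pro-apoptotic factor Chop, averaged 69.8 ± 7.62 CPM in male KO and 72.7 ± 6.03 CPM in male WT libraries (edgeR adjusted p = 0.9). Ppp1r15a (ENSMUSG00000040435, chr7:45522916-45526268, minus strand), the phosphatase subunit that reverses eIF2 phosphorylation, averaged 100.2 ± 9.10 CPM in male KO and 104 ± 17.0 CPM in male WT libraries (edgeR adjusted p = 0.938). Atf5 and Ddit3 overlap expressed genes on the opposite strand (Nup62 and Il4i1, and Mars), and since the strand setting of the counting is not given in the sources used here, their levels are uncertain to that extent.

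None of the ER branch was called in males (edgeR; 0 of 5 also at an unadjusted p under 0.05, and 0 of 5 with DESeq2). Hspa5 (ENSMUSG00000026864, chr2:34771970-34777547, plus strand), the main ER chaperone BiP, had 369, 464, 412, 364 and 348 CPM in male KO libraries, against 324, 380.2, 286, 321 and 337 CPM in male WT libraries. The ranges overlapped, with a log2 fold change of 0.25 ± 0.20 (SE; edgeR adjusted p = 0.599). Calr (ENSMUSG00000003814, chr8:84841850-84846934, minus strand), the lectin chaperone calreticulin, averaged 1700 ± 176 CPM in male KO and 1714 ± 75.9 CPM in male WT libraries (SD, n = 5 each). Herpud1 (ENSMUSG00000031770, chr8:94386438-94395377, plus strand), a factor of ER-associated degradation, had 226, 226, 231, 229 and 223 CPM in male KO libraries, against 289, 311, 250.5, 237 and 268 CPM in male WT libraries. Every KO library lay below every WT library for Herpud1, yet the log2 fold change of -0.26 ± 0.15 (SE) did not pass (edgeR adjusted p = 0.424). Dnajb9 (ENSMUSG00000014905, chr12:44205559-44210326, minus strand), a co-chaperone of BiP, and Xbp1 (ENSMUSG00000020484, chr11:5520659-5525893, plus strand), the factor spliced by Ire1, had log2 fold changes of 0.18 ± 0.15 and -0.19 ± 0.12 (SE).

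Transcripts of other cells moved with genotype in males. Border macrophage markers were called higher in KO for 8 of 9 tested, with sums of 172.5 to 279 CPM in male KO and 35.6 to 65.7 CPM in male WT libraries and no marker at 0. Neuronal markers were higher for 4 of 5 tested, with sums of 68.8 to 324 CPM in male KO and 13.6 to 37.8 CPM in male WT libraries and none at 0. Astrocyte markers were higher for 3 of 4 tested (261 to 493 CPM in male KO, 135 to 182 CPM in male WT, where Gja1 was at 0) and oligodendrocyte markers for 3 of 5 (243 to 832 CPM in male KO, where Pdgfra was at 0, and 101 to 155 CPM in male WT, where Mog was at 0). The part of these transcripts in the Atf4 and Atf3 results was not tested. Without male KO replicates 6, 9 and 17, which held the most neural transcripts, Atf4 was at -0.41 (edgeR adjusted p = 0.218) and Atf3 at 0.36 (0.466), with 2 male KO libraries left. In bulk RNA, fewer cells of a type and less RNA per cell cannot be told apart.

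**Figure D1:**
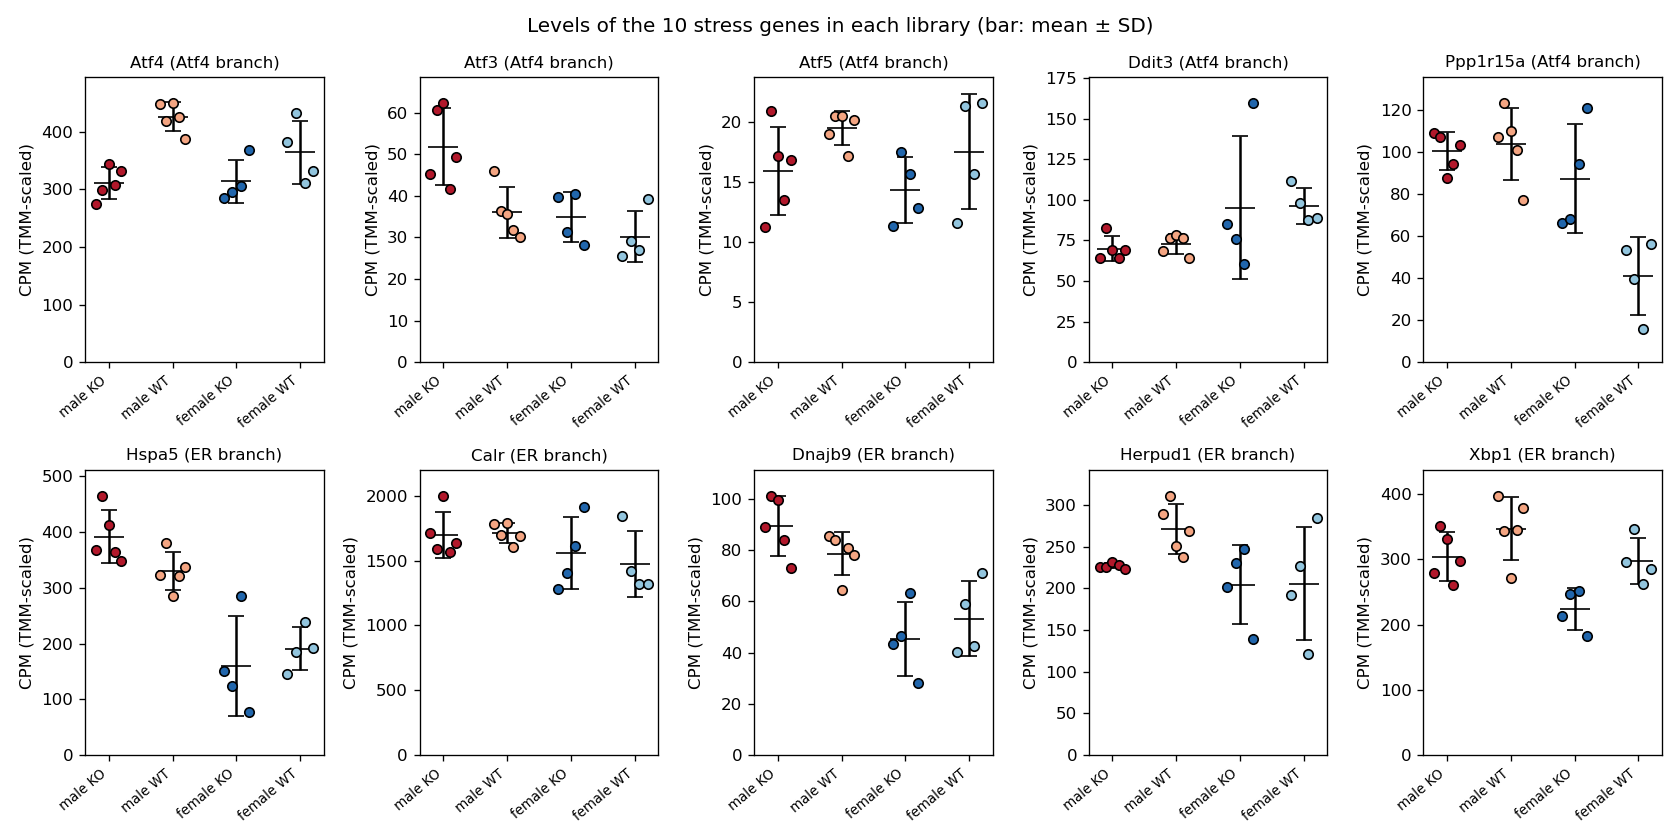
CPM (TMM-scaled) of each of the 10 stress genes in every library, by group, with points for libraries and bars for the mean ± SD (n = 5 in each male group, n = 4 in each female group). Male KO libraries lie below all male WT libraries for Atf4, female KO libraries lie above all female WT libraries for Ppp1r15a, and within each genotype the male libraries lie above all female libraries for Hspa5.

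In female microglia 1 member was called, Ppp1r15a, which was higher in KO, where 2.68% of all tested genes were called. None of the ER branch was called (edgeR; 1 of 5, Xbp1, at an unadjusted p under 0.05, and 0 of 5 with DESeq2). Ppp1r15a had 65.9, 67.8, 94.0 and 121 CPM in female KO libraries, against 53.4, 39.3, 15.7 and 56.0 CPM in female WT libraries. The groups did not overlap. The lowest value, in WT replicate 34, came from 7 UMIs and has a counting interval of 6.30 to 32.3 CPM (exact Poisson, 95%, counting error only). The log2 fold change was 0.91 ± 0.23 (SE), 1.87-fold higher in KO (edgeR adjusted p = 0.0369). It passed in 21 of 31 alternatives, stayed positive in all of them, and was lost without female KO replicate 16 or female WT replicate 30, 31 or 34 (edgeR adjusted p = 0.0622 to 0.112), with only the 2 groups fitted (0.273), and when reads-per-UMI range was a covariate (0.94, edgeR adjusted p = 0.103). Without the 4 libraries of the highest reads-per-UMI range, which leaves 1 female WT library, it was 0.45 (edgeR adjusted p = 0.522).

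Genes of the immediate-early and dissociation response, known as rapid responses to stimuli and to handling, moved with Ppp1r15a in females. Of 25 tested, 5 were called higher in female KO and none lower, with a median log2 fold change of 0.73 against 0.01 over all tested genes. Those of lowest p were Jun (1.21 ± 0.18), Egr1 (1.12 ± 0.21), Jund (0.93 ± 0.18) and Zfp36 (1.29 ± 0.27; log2 fold change ± SE, edgeR adjusted p = 0.00264 to 0.0127). The 26 listed genes summed to 6743, 6500, 9551 and 6395 CPM in female KO libraries, against 5549, 4254, 4571 and 4712 CPM in female WT libraries, with no overlap. Myeloid markers moved the other way: monocyte markers were called lower in female KO for 4 of 6 tested (131 to 197 CPM in KO, 208.5 to 720.4 CPM in WT) and neutrophil markers for 6 of 9 (1001 to 5318 CPM in KO, 2172 to 15879 CPM in WT), and none was at 0. The part of these transcripts in the Ppp1r15a result was not tested.

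**Figure D2:**
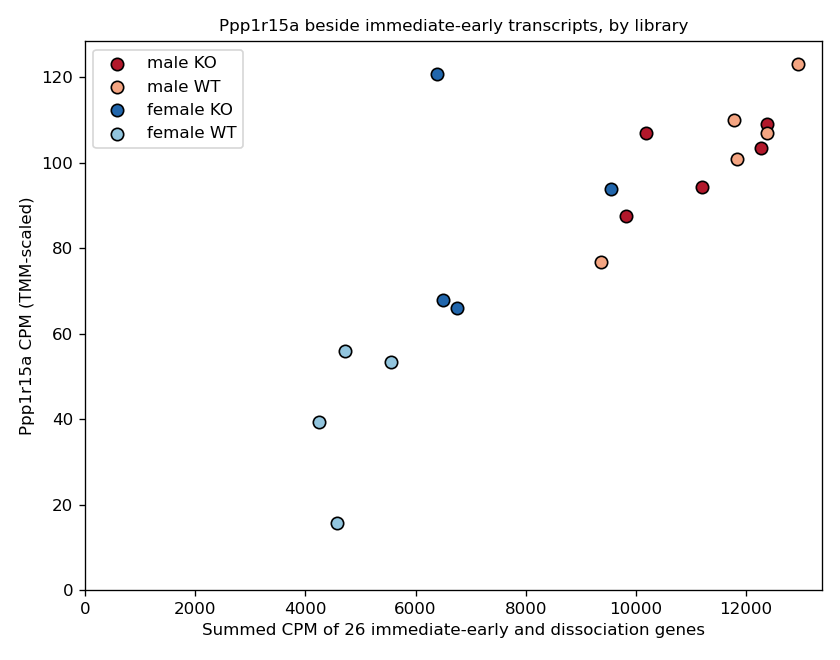
Ppp1r15a in CPM (TMM-scaled, vertical axis) against the summed CPM, scaled by library totals, of 26 immediate-early and dissociation genes (horizontal axis), 1 point per library, coloured by group. The 4 female WT libraries lie lowest on both axes and most male libraries highest, while female KO replicate 33 combines 121 CPM of Ppp1r15a with a sum of 6395 CPM.

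No other member passed the test in females. Atf4 had 286, 296, 306 and 368 CPM in female KO libraries, against 382, 433, 311 and 331 CPM in female WT libraries. The ranges overlapped through KO replicate 33, and the log2 fold change of -0.23 ± 0.12 (SE) did not pass (edgeR adjusted p = 0.361). Xbp1 had 213, 247, 252 and 183 CPM in female KO libraries, against 296, 346, 262 and 285 CPM in female WT libraries. Every KO library lay below every WT library for Xbp1, yet the log2 fold change of -0.40 ± 0.14 (SE) did not pass (edgeR adjusted p = 0.139). Atf3, Atf5, Ddit3, Hspa5, Calr, Dnajb9 and Herpud1 had female log2 fold changes between -0.27 and 0.24, with edgeR adjusted p of 0.623 or more.

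**Figure D3:**
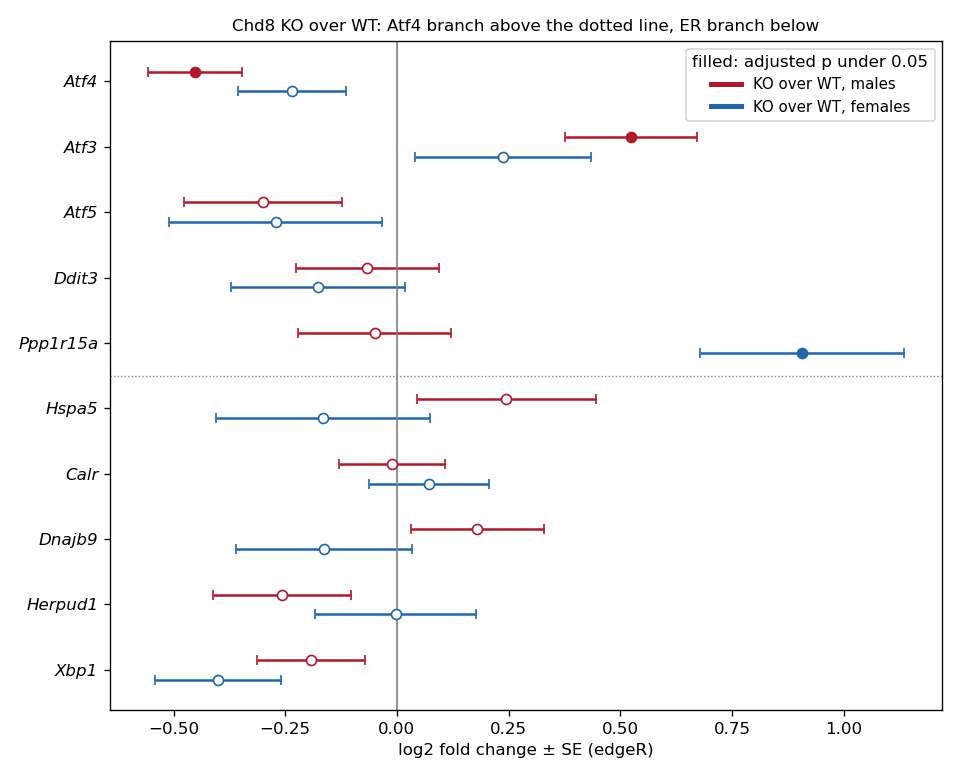
Log2 fold change ± SE of KO over WT (horizontal axis) for the 10 genes in males (red) and females (blue), from edgeR, with filled points for an adjusted p under 0.05. Atf4 lies left of 0 and Atf3 right of 0 in both sexes, with filled points for the males alone, and Ppp1r15a differs from 0 in females at 0.91.

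Averaged over both sexes with equal weight, Atf4 and Xbp1 were lower in KO and no member was higher, so that 2 of 10 members were called where 9.50% of all tested genes were. Atf4 fell by 0.34 ± 0.08 on the log2 scale (SE; 1.27-fold lower, edgeR adjusted p = 0.0088), and passed in 29 of 30 alternatives, all but the one that left out the same 3 male KO libraries (edgeR adjusted p = 0.0641). Xbp1 fell by 0.30 ± 0.09 (SE; 1.23-fold lower, edgeR adjusted p = 0.0466), and passed in 8 of 30 alternatives. Its call was lost without any 1 of 14 libraries, namely male KO replicates 6, 17, 36 and 40, male WT replicates 10, 11, 14 and 37, female KO replicates 1, 7 and 33 and female WT replicates 30, 31 and 39 (edgeR adjusted p = 0.0501 to 0.108). Atf3 (0.38 ± 0.12, edgeR adjusted p = 0.0537) and Ppp1r15a (0.43 ± 0.14, edgeR adjusted p = 0.0628) did not pass, though with DESeq2 both did (adjusted p = 0.0419 and 0.0226).

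Whether genotype acted differently in the sexes was tested directly as the female minus the male KO effect. None of the 10 members was called (edgeR; 1 of 10 at an unadjusted p under 0.05, and 0 of 10 with DESeq2), where 0.237% of all tested genes were. Ppp1r15a came nearest, with a difference of 0.96 ± 0.29 (log2, SE; unadjusted p = 0.00302, edgeR adjusted p = 0.249). The Atf4 difference was 0.22 ± 0.16 (edgeR adjusted p = 0.787) and the Atf3 difference -0.29 ± 0.25 (edgeR adjusted p = 0.831), so the male calls of both genes are not shown to be particular to males. Of the 25 immediate-early genes, 3 were called for the same difference, Egr1 (1.27 ± 0.27), Jun (1.21 ± 0.24) and Socs3 (1.05 ± 0.22; edgeR adjusted p = 0.0427 to 0.0469).

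Other genes of the 2 programs were counted in the same tests, in which 6.24% of all tested genes were called in males and 2.68% in females. Of 24 tested targets of the integrated stress response, such as amino acid transporters and tRNA synthetases, 1 was called lower in male KO and 0 in female KO, and none was higher (edgeR). At an unadjusted p under 0.05 there were 6 of 24 in males and 3 of 24 in females, and DESeq2 called 2 and 1. The gene called by edgeR was Nupr1, a stress-induced chromatin protein. Nupr1 stood at 69.8 ± 10.5 CPM in male KO and 102 ± 3.89 CPM in male WT libraries (SD, n = 5 each), with a log2 fold change of -0.54 ± 0.12 (SE; edgeR adjusted p = 0.0077). The median log2 fold change of these targets was -0.15 in males and 0.06 in females, beside -0.01 and 0.01 over all tested genes. It was positive for 6 of the 24 in males and 15 in females. The female minus male effect was positive for 21 of the 24, and none of them was called for it. Among 15 tested eIF2 kinases, subunits and regulators none was called in either sex (edgeR; 1 in males and 2 in females at an unadjusted p under 0.05, 0 with DESeq2). Among 11 tested ER stress sensors and processing enzymes, Mbtps2, a protease that activates Atf6, was called lower in female KO. Its level was low, at 3.14 ± 2.63 CPM in female KO and 12.1 ± 3.93 CPM in female WT libraries (SD, n = 4 each; log2 fold change -1.55 ± 0.40, edgeR adjusted p = 0.0389). In males it was higher in KO (8.57 ± 1.87 CPM) than in WT (6.27 ± 1.94 CPM; SD, n = 5 each). It was not called there or averaged over the sexes. None of the 8 mitochondrial stress genes was called in either sex (edgeR; 1 in each sex at an unadjusted p under 0.05, 0 with DESeq2).

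Of 23 tested ER folding factors outside the members, 2 were called higher in male KO, 1 in female KO and none lower, beside the same 6.24% and 2.68% of all tested genes, with median log2 fold changes of -0.0019 in males and 0.05 in females. Creld2, a secreted ER stress-induced protein, averaged 74.6 ± 11.95 CPM in male KO and 47.8 ± 4.67 CPM in male WT libraries (SD, n = 5 each; log2 fold change 0.63 ± 0.12, edgeR adjusted p = 0.00214). Sil1, the nucleotide exchange factor of BiP, was higher in KO in both sexes, at 86.8 ± 9.33 CPM in male KO and 64.3 ± 2.91 CPM in male WT libraries (SD, n = 5 each), and 89.5 ± 4.07 CPM in female KO and 55.9 ± 12.7 CPM in female WT libraries (SD, n = 4 each). Its log2 fold changes were 0.43 ± 0.11 in males and 0.62 ± 0.13 in females (edgeR adjusted p = 0.0165 and 0.0183). Averaged over the sexes, where 9.50% of all tested genes were called, 2 of the 23 were higher (Creld2 and Sil1) and 1 lower. The lower one was Selenom, an ER selenoprotein (-0.64 ± 0.19, edgeR adjusted p = 0.0313). Of 24 tested genes of ER degradation and translocation none was called in either sex alone (edgeR; 1 in males and 2 in females at an unadjusted p under 0.05, 0 with DESeq2). Averaged over the sexes 2 of the 24 were higher, a share near the 9.50% of all tested genes called. They were Sel1l (0.36 ± 0.10) and Ube2j1 (0.50 ± 0.14), 2 components of the ER ubiquitin ligase machinery (edgeR adjusted p = 0.0328 and 0.0241).

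The ER chaperones Hspa5 and Dnajb9 were higher in male than in female microglia, in KO and in WT. Of the 10 members, 2 were called between KO males and KO females, both higher in males, where 7.10% of all tested genes were called. Between WT males and WT females 3 were called, all higher in males, where 17.3% of all tested genes were.

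Hspa5 had 369, 464, 412, 364 and 348 CPM in male KO libraries, against 151, 125, 286 and 77.2 CPM in female KO libraries. In WT it had 324, 380.2, 286, 321 and 337 CPM in male libraries, against 146, 184, 239.6 and 192 CPM in female libraries. Within each genotype every male library lay above every female library. The order of the group means was 391 ± 47.4 CPM in male KO, 330 ± 33.9 CPM in male WT (SD, n = 5 each), 190 ± 38.6 CPM in female WT and 160 ± 89.5 CPM in female KO libraries (SD, n = 4 each). Neighbours of the same sex in that order did not pass the test (edgeR adjusted p = 0.599 in males and 0.809 in females). The male over female log2 fold change was 1.22 ± 0.22 in KO (SE; 2.34-fold higher in males, edgeR adjusted p = 0.00258) and 0.81 ± 0.23 in WT (SE; 1.76-fold higher, edgeR adjusted p = 0.0162). The KO value passed in 30 of 31 alternatives, failed with 3 male KO libraries left out, replicates 6, 9 and 17 (1.11, edgeR adjusted p = 0.0712), and was 1.11 when reads-per-UMI range was a covariate (edgeR adjusted p = 0.0085). The WT value was 0.38 with that covariate (edgeR adjusted p = 0.616), 0.65 on reads without UMI correction (0.16) and 0.72 without female WT replicate 30 (0.069), and 0.80 without the highest reads-per-UMI range (0.205).

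Dnajb9 had 89.0, 101, 99.8, 84.2 and 73.2 CPM in male KO libraries, against 43.3, 46.7, 63.4 and 28.3 CPM in female KO libraries. Every male KO library lay above every female KO library. In WT it had 85.6, 84.0, 64.6, 80.7 and 77.9 CPM in male libraries, against 40.3, 59.0, 42.5 and 71.2 CPM in female libraries, which overlapped through 1 library of each sex. The male over female log2 fold change was 0.87 ± 0.17 in KO (SE; 1.82-fold higher in males, edgeR adjusted p = 0.00492) and 0.52 ± 0.18 in WT (SE; 1.44-fold higher, edgeR adjusted p = 0.0482). The KO value passed in 30 of 31 alternatives, all but the one that left out the same 3 male KO libraries (0.71, edgeR adjusted p = 0.114). The WT value passed in 13 of 31, was 0.08 when reads-per-UMI range was a covariate (edgeR adjusted p = 0.925), and was lost without any 1 of male KO replicates 6, 17 and 36, male WT replicates 10, 11, 14 and 37 and female WT replicates 30, 31 and 34 (edgeR adjusted p = 0.05 to 0.185).

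Ppp1r15a was higher in WT males, at 107, 123, 110.0, 101 and 76.9 CPM, than in WT females, whose 4 values stood at 15.7 to 56.0 CPM. The groups did not overlap. The log2 fold change was 1.23 ± 0.21 (SE; 2.35-fold higher in males, edgeR adjusted p = 0.000496). In KO it was 0.28 ± 0.19 (edgeR adjusted p = 0.406), where the ranges overlapped. The comparison of WT males with WT females and that of KO with WT females share the female WT libraries. Without the highest reads-per-UMI range the WT value was 0.90 (edgeR adjusted p = 0.0827).

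The remaining members stood closer between the sexes. In KO, Xbp1 (0.42 ± 0.13, edgeR adjusted p = 0.054) and Atf3 (0.52 ± 0.17, edgeR adjusted p = 0.0611) were above every female KO library in all 5 male KO libraries without passing the test. Ddit3 was lower in all 5 WT male libraries (64.1 to 78.0 CPM) than in the 4 WT female libraries (87.3 to 112 CPM), with a log2 fold change of -0.42 ± 0.18 that did not pass (edgeR adjusted p = 0.111). Atf4 had log2 fold changes of 0.0015 ± 0.11 in KO and 0.22 ± 0.11 in WT (SE), and Calr 0.13 ± 0.13 in KO and 0.22 ± 0.13 in WT.

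**Figure D4:**
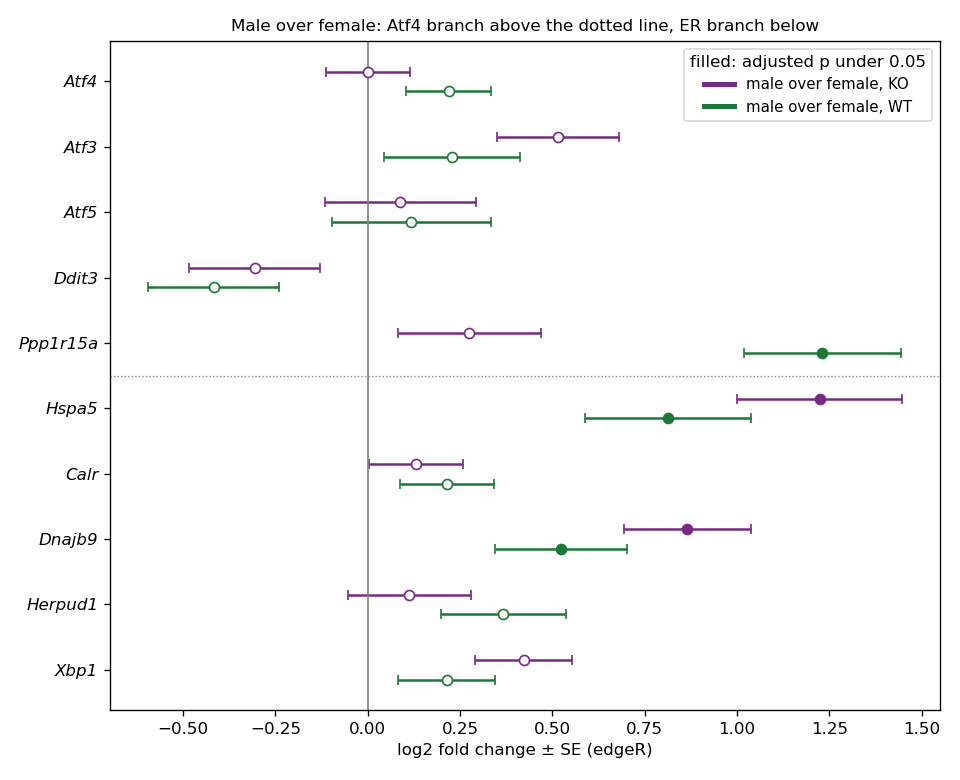
Log2 fold change ± SE of male over female (horizontal axis) for the 10 genes in KO (purple) and WT (green), from edgeR, with filled points for an adjusted p under 0.05. All 10 ER branch points lie right of 0, those of Hspa5 farthest within each genotype, while the Atf4 branch spreads from Ddit3 left of 0 to Ppp1r15a in WT at 1.23.

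Between the sexes other transcripts moved as well. In WT, immediate-early genes were called higher in males for 17 of 25 tested and lower for 2, with a median log2 fold change of 1.41, and sums of 9374 to 12943 CPM in male WT and 4254 to 5549 CPM in female WT libraries. Neutrophil markers were lower in WT males for 9 of 9 tested (315 to 1157 CPM in male WT, 2172 to 15879 CPM in female WT), monocyte markers for 6 of 6 (51.7 to 85.1 CPM in male WT, 208.5 to 720.4 CPM in female WT) and border macrophage markers for 8 of 9 (35.6 to 65.7 CPM in male WT, 165 to 343 CPM in female WT), and none was at 0. Choroid plexus and ependymal markers were called higher in WT males for 2 of 2 tested, Ttr and Enpp2. Their list summed to 417 to 985.5 CPM in male WT and 34.9 to 205 CPM in female WT, where Kl, Foxj1 and Tmem212 were at 0. In KO 0 of these 2 were called (199 to 835 CPM in male KO, 133 to 377 CPM in female KO, where Tmem212 was at 0). In KO, 6 of 25 immediate-early genes were higher in males, and 4 of 9 neutrophil and 4 of 6 monocyte markers lower. Neural markers were also called higher in KO males, for 2 of 5 neuronal (68.8 to 324 CPM in male KO, 27.4 to 93.8 CPM in female KO), 2 of 4 astrocyte (261 to 493 CPM in male KO, 52.8 to 258 CPM in female KO, where Aqp4 was at 0) and 3 of 5 oligodendrocyte markers (243 to 832 CPM in male KO, 151.5 to 209 CPM in female KO, with Pdgfra at 0 in both). The KO calls of Hspa5 and Dnajb9 were lost without the 3 male KO libraries of most neural transcripts, as given above. That fit had 2 male KO libraries left, and the log2 fold changes were 1.11 and 0.71. Calls over all tested genes in this comparison were then 104, against 777 with all libraries. The part of these transcripts in the Hspa5, Dnajb9 and Ppp1r15a results was not tested.

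Around the members, 5 of 24 tested genes of ER degradation and translocation were called higher in WT males and none was lower, a share near the 17.3% of all tested genes called. Those higher included Selenos (0.67 ± 0.13), Sel1l (0.63 ± 0.15), Erlec1 (1.25 ± 0.31) and Ssr3 (0.70 ± 0.22; log2 fold change ± SE, edgeR adjusted p = 0.00145 to 0.0328). The genes in this paragraph were named after their values were seen. In KO, 2 of the 24 were higher in males (Ssr3 and Selenos) and 1 lower (Sec61g). Of 23 folding factors none was higher and 2 lower in WT males (Canx and Selenom), and 1 was higher in KO males (Creld2). Of 24 integrated stress response targets, 2 were higher (Psat1 and Cebpg) and 1 lower (Nupr1) in WT males. Of 15 eIF2 kinases, subunits and regulators, 1 was higher in WT males, Eif2ak3, which encodes Perk (0.92 ± 0.21, edgeR adjusted p = 0.00541). Another 2 were lower there, Eif2ak2 (-0.64 ± 0.19, edgeR adjusted p = 0.0233) and Eif2a (-0.91 ± 0.255, edgeR adjusted p = 0.0171). In KO males 1 of the 15 was higher (Eif2b2) and 3 lower (Eif2ak2, Eif2a and Eif2s2). Of 11 ER stress sensors and processing enzymes, 1 was higher and 0 lower in WT males, again Eif2ak3. In KO males 0 of the 11 were higher and 1 lower, Atf6 (-0.63 ± 0.18, edgeR adjusted p = 0.0416). Of 8 mitochondrial stress genes, 2 were lower in WT males (Dele1 and Hspe1), and 0 were called in KO.

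The 2 branches were set side by side by their medians, with no test of the difference between them. The median log2 fold change of KO over WT was -0.07 for the Atf4 branch and -0.01 for the ER branch in males, and -0.18 and -0.16 in females. In females these were -0.05 and -0.46 when reads-per-UMI range was a covariate, and -0.03 and -0.46 on reads without UMI correction. Male over female it was 0.42 for the ER branch and 0.09 for the Atf4 branch in KO, and 0.37 and 0.22 in WT, beside -0.02 and -0.01 over all tested genes. The ER branch median was positive in all 31 alternatives in KO (0.32 to 0.65) and in WT (0.14 to 0.56, the lowest when reads-per-UMI range was a covariate). The mean log2 CPM of the 5 ER branch genes was 8.21 to 8.51 in the 10 male libraries and 7.34 to 8.15 in the 8 female libraries, without overlap. Scaled by library totals alone, the sexes overlapped, with a lowest male value of 8.20 and a highest female value of 8.21. Within the middle reads-per-UMI range it was 8.33 to 8.49 in 3 male and 7.69 to 8.09 in 3 female libraries. The mean log2 CPM of the Atf4 branch overlapped, at 6.00 to 6.35 in male and 5.52 to 6.28 in female libraries.

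Members varied more among female than among male libraries. The median coefficient of variation over the 5 Atf4 branch genes was 10.9% in male KO and 8.3% in male WT, against 19.3% in female KO and 20.5% in female WT. For the ER branch it was 12.1%, 10.6%, 23.4% and 20.3% in the same groups, beside 15.4%, 15%, 29.5% and 25.7% over all tested genes. Herpud1 varied least, by 1.34% in male KO, but by 23.4% in female KO and 33.1% in female WT. Its male KO values, 223 to 231 CPM, all lay within the counting interval of replicate 9 (205.7 to 247.8 CPM, exact Poisson, 95%). That spread is therefore no wider than counting error. Hspa5 varied by 56.0% and Ddit3 by 46.3% in female KO, where replicate 33 held the lowest Hspa5 (77.2 CPM from 30 UMIs, exact Poisson 95% interval 52.1 to 110.2) and the highest Ddit3 (159.5 CPM from 62 UMIs, 122 to 204.5).

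Whether members rose and fell together from library to library was tested on deviations from the group mean, over 45 pairs and 18 libraries. No pair passed after adjustment over the 45 (permutation test within groups, two-sided, 100000 permutations; lowest adjusted p = 0.0866 for Pearson's r and 0.0677 for Spearman's rho), while 10 pairs by r and 13 by rho had an unadjusted p under 0.05. The pairs of lowest p were Atf3 with Dnajb9 (r = 0.67, rho = 0.71, permutation p = 0.00356 and 0.00301) and Herpud1 with Dnajb9 (r = 0.79, rho = 0.82, permutation p = 0.00385 and 0.00154). Without the 2 libraries farthest from the median of the first gene r was 0.62 and 0.80, and with reads-per-UMI range removed 0.44 and 0.52. Ddit3 and Hspa5 had the most negative r, -0.76 (rho = -0.35, adjusted permutation p = 0.271 and 0.478), which rested on the 2 libraries farthest from the median, since r was -0.06 without them. The median r was 0.39 over the 10 pairs within the ER branch, 0.15 over the 10 within the Atf4 branch and 0.08 over the 25 between the branches. With reads-per-UMI range removed these medians were 0.41, 0.40 and 0.26, so the gap between the ER and the Atf4 branch was no longer seen. Without the 2 shallowest libraries they were 0.29, 0.05 and 0.21, where that gap was still seen.

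**Figure D5:**
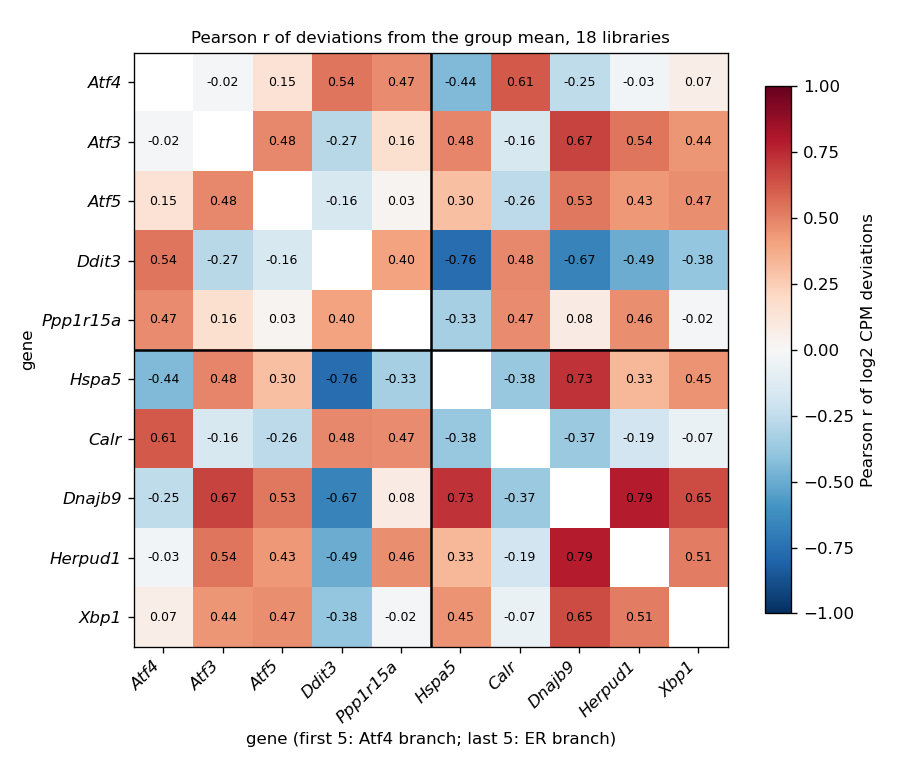
Pearson r between the 10 genes over 18 libraries, from deviations of log2 CPM from the group mean, with the Atf4 branch in the first 5 rows and columns and the ER branch in the last 5. Hspa5, Dnajb9, Herpud1 and Xbp1 form a block of positive values (Herpud1 with Dnajb9 at 0.79). Calr, the remaining ER gene, is negative with these 4 (-0.38 to -0.07), while Atf3 and Atf5 of the Atf4 branch are positive with them (0.30 to 0.67). Ddit3 is negative with the same 4 of the 5 ER genes, at r of -0.17 to 0.06 without the 2 libraries farthest from its median. No pair passed after adjustment, and the block was not stable. Hspa5 with Herpud1 was at -0.27 without the 2 libraries farthest from the median of Hspa5, and at -0.08 with reads-per-UMI range removed. With that range removed, Calr was at 0.13 with Xbp1, 0.42 with Herpud1, 0.10 with Dnajb9 and -0.23 with Hspa5.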

How the data were processed

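RNA of 18 microglia samples was measured by bulk MARS-seq, per the labels' protocols. The authors deposited UMI-corrected counts (used here) and uncorrected read counts (an alternative) for each gene, both unnormalized whole numbers. Tools named without versions, per the submitters' processing notes, were cutadapt, STAR and HTSeq, with the mm10 build; the strand setting is not given in the sources used here. The 16 other columns of libraries match no sample and were not used. Genes were filtered with filterByExpr and scaled by TMM (CPM), and edgeR 4.0.16 (R 4.3.3) quasi-likelihood models with 1 mean per group were fitted to all libraries and 10948 genes, with Benjamini-Hochberg adjustment over all of them. Log2 CPM used a prior count of 2. Summed marker CPM were scaled by library totals. No library was a copy of another in its group: same-group pairs exceeded counting noise in 32 of 32 cases (chi-square per degree of freedom 2.74 to 12.7). Names and coordinates came from GENCODE M21 (GRCm38). In simulated data for KO against WT in males (10757 genes), 70 of 100 genes changed 2-fold and 30 of 100 changed 1.5-fold were recovered, with 2 false calls. Alternatives were DESeq2 1.42.0, RLE factors, library totals, 2 filters, read counts, covariates, sva 3.50.0 and left-out libraries. The text names all members, Chd8 and up to 4 called genes of lowest p per list and KO comparison. Members and lists were chosen with earlier results of these data known.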

Additional observations from a re-analysis of the deposited data

Results flagged for a closer look

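Of 40 groups of libraries tested (10 genes in 4 groups), 1 held a library far from the others. Ddit3 stood at 82.6 CPM in male KO replicate 9, against 63.9 to 69.2 CPM in the other 4 male KO libraries. Chance alone sets apart about 1 in 20 groups.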

How the results depend on the processing

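No paired analysis was possible because the groups share no replicate numbers. No called value changed sign under any alternative, and causes of the changes below were not tested. Called members in males (2) were 1 on read counts and within the lowest reads-per-UMI range, 0 without male KO replicates 6, 9 and 17, and 1 to 2 leaving out 1 library. In females (1) they were 0 with only the 2 groups fitted, with reads-per-UMI range as a covariate, without male KO replicates 6, 9 and 17 and without the 2 shallowest libraries, and 0 to 1 leaving out 1 library. Averaged (2), they were 4 with DESeq2 and with 1 surrogate variable, 1 with the covariate, 0 without male KO replicates 6, 9 and 17, and 1 to 3 leaving out 1 library. For the female minus male effect (0) there was 1 without a low-count filter, Ppp1r15a. Male over female in KO (2) gave 4 with DESeq2 and without a filter, 0 without male KO replicates 6, 9 and 17, and 2 to 4 leaving out 1 library; in WT (3) it gave 1 on read counts and with the covariate, and 1 to 4 leaving out 1 library. Correlated pairs (0) were 1 without the 2 shallowest libraries and 0 to 2 leaving out 1 library. Of 2 alternatives chosen after seeing the data, leaving out the highest reads-per-UMI range gave 0 in females, 1 averaged and 0 for male over female in WT, and leaving out the 2 shallowest libraries and the 1 of most neutrophil transcripts gave 0 in females and 1 averaged. Over all genes, calls in males ran from 196 (without male KO replicates 6, 9 and 17) to 1209 (without the highest range) against 683, and in females from 0 (only the 2 groups) to 680 (without female KO replicate 33) against 293. Averaged over the sexes they ran from 480 to 1584 against 1040, and for the female minus male effect from 1 to 238 against 26. Male over female, they ran from 104 to 1782 against 777 in KO and from 271 to 2545 against 1892 in WT. Depth limits the female values most, where Atf5 had as few as 5 UMIs and Ppp1r15a 7.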
